A study of Homo sapiens with 11 samples.

Results

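The replication-dependent histone genes encode the linker histones H1 and the core histones H2A, H2B, H3 and H4 that package newly copied DNA. They were taken from the count table by symbol, as the genes named H1-1 to H1-6 and the numbered H2AC, H2BC, H3C and H4C genes. This gave 66 of the 38557 annotated genes: 6 H1, 16 H2A, 17 H2B, 13 H3 and 14 H4 genes. RNA had been sequenced from MOLM-13, an established acute myeloid leukemia line with a rearranged KMT2A gene, after 72 h in culture with 1 of 3 additions. DMSO, the solvent, was the control (4 libraries). MI-503, an inhibitor of the KMT2A partner Menin, was given at 1 µM (4 libraries, numbered 1 to 4). The combination received 1 µM MI-503 and 100 nM PR-957, which blocks PSMB8, a subunit of the immunoproteasome (3 libraries, numbered 1, 2 and 4). No library received PR-957 alone, so its effect was measured only on top of MI-503, and all libraries came from this single cell line. The labels do not say that replicates were separate cultures, so the tests measure the spread between these libraries, which may be technical.

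These genes are transcribed mainly in S phase, when their proteins are needed to wrap new DNA. Most of their mRNAs do not end in a poly(A) tail. They end just after a short stem-loop, which is bound by the protein SLBP, and the cut there is made by a machinery that includes the U7 small nuclear RNP. A minority of these genes also make transcripts that run past the stem-loop and are polyadenylated, often in cells that have left the cycle. The labels give the material as poly(A) RNA, so a count here reports polyadenylated transcripts and whatever tail-less RNA was carried along, and is no measure of the total histone mRNA of a cell.

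All 66 genes had the stem-loop within their annotated span or at most 60 bases past it, in 10 versions. In H2BC12, H2BC18 and H2BC5 further annotated exons lie downstream of it. The most frequent version was shared by 38 genes of the H1, H2A, H2B and H3 families, and all 14 H4 genes had a stem with a different base pair. The stem-loops of genes whose counts changed are printed. Whether the element had a part in the changes was not tested. The 16 bases are given 5′ to 3′ with the loop in capitals.
H2AC6 (chr6:26124669-26124684, hg38, plus strand): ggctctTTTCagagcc
H2BC12 (chr6:27146366-27146381, hg38, minus strand): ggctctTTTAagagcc
H2AC11 (chr6:27133515-27133530, hg38, plus strand): ggctctTTTCagggcc
H4C3 (chr6:26104317-26104332, hg38, plus strand): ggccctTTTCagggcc
H4C1 (chr6:26022030-26022045, hg38, plus strand): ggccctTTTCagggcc
H4C5 (chr6:26205001-26205016, hg38, plus strand): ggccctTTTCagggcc
H4C12 (chr6:27831178-27831193, hg38, minus strand): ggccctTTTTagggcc
The stem-loops of H4C3, H4C1 and H4C5 are identical base for base. In the combination against DMSO, H4C3 was called higher and H4C1 and H4C5 lower (below). The call of H4C3 was lost without combination replicate 2 and with limma-voom. H2AC11 is 1 of 2 genes in which the arms of the stem are not exact reverse complements of each other.

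The promoters of 3 genes are printed because their counts moved in different ways: H2BC12 and H4C12 were higher and H4C5 lower in the combination than in DMSO. Each runs over the 250 bases before the start site given by RefSeq, 5′ to 3′, with matches to ATTTGCAT (the octamer bound by OCT1), CCAAT and TATAAA on either strand in capitals; adjoining matches can run together.
H2BC12 (chr6:27146859-27147108, GRCh38.p14, minus strand): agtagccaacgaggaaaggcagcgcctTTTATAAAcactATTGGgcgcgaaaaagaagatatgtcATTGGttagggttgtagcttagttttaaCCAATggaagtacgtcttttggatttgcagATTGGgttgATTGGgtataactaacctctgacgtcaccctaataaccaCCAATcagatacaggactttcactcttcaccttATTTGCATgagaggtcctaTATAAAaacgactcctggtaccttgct
H4C12 (chr6:27831561-27831810, GRCh38.p14, minus strand): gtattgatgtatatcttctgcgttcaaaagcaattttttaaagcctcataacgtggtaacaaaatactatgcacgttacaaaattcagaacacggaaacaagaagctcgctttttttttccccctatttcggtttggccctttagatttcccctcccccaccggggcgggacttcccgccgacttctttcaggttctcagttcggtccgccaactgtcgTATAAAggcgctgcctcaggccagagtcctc
H4C5 (chr6:26204360-26204609, GRCh38.p14, plus strand): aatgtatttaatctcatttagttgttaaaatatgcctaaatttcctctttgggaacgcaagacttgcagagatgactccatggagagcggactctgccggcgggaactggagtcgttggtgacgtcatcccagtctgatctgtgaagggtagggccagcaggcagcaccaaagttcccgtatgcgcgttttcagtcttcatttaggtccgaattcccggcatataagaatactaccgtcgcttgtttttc
H2BC12 held all of these motifs, H4C12 held 1 TATAAA and H4C5 held none. RefSeq promoter windows of 300 bases, which reach 50 bases past the start, were at hand for 61 of the genes. Without an entry were H4C1, H4C3, H2AC12, H3C11 and H3C12. The octamer stood in 73.3% of the H2A and 82.4% of the H2B windows, in 0 of 12 H4 windows, and in 1.8% of all 27305 windows. CCAAT was in 85.2% of the histone windows against 35.7% of all windows, and TATAAA in 67.2% against 12%. A match to such letters is a description of the sequence and not a measured binding site.

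The genes lay in 4 clusters of hg38. On chromosome 1 there were 11 genes at chr1:149782689-149887916. On chromosome 6 there were 34 genes at chr6:25726063-26285499, 5 at chr6:27132316-27147562 and 16 at chr6:27807479-27893891. In 62 genes the annotation used for counting stopped at or close to the stem-loop, as in H4C5 (chr6:26204645-26205021, 377 exon bases). In the other 4, all H2B genes, it went on for more than 100 exon bases: 394 in H2BC12, 578 in H2BC18, 725 in H2BC5 and 1728 in H2BC21. The annotation of H2BC12 (chr6:27138293-27146858, 887 exon bases) includes a further exon far downstream. The limit of 100 bases was set after the annotation had been seen.

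Detection was limited. The 11 libraries held 18891243 to 41153974 counted fragments each, of which 690 to 1676 per library came from these 66 genes, 0.00424% of all fragments. Of the 66 genes, 54 had at least 1 fragment in some library, 40 had one in each library, and 34 had at least 10 fragments in at least 3 libraries. No fragment was assigned to 12 genes. In 5 of these (H4C14, H4C15, H3C14, H3C15 and H2AC18), as in H2AC19, every exon base lay in a stretch of at least 100 bases that recurs elsewhere in the genome, and fragments that mapped to several places had not been counted, so their count says nothing about expression. For the other 7 a count of 0 over all libraries allows up to 0.0104 CPM (fragments of a gene per 1000000 fragments of the scaled library total), an upper limit for counting error only and for the kind of RNA captured. H3C4 and H2AC7 shared 47.2% and 85.3% of their exon bases with each other, and H2BC18 shared 10% with FCGR1A, bases that featureCounts assigned to neither gene. Counting ignored strand.

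The filter on low counts was passed by 33 of the 66 genes and 14683 genes in all. By family, 3 of 6 H1, 7 of 16 H2A, 11 of 17 H2B, 6 of 13 H3 and 6 of 14 H4 genes were tested. A gene can pass this filter through the group in which it is high, so the 33 tested genes are not a sample of the 66. Of the 33 genes not tested, 21 had fragments, between 1 and 95 in total, at a mean of at most 0.334 CPM. The median level of the tested histone genes was 0.821 CPM, against 20.5 CPM for all tested genes.

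The markers of the line fitted its label: the myeloid genes CD33, PTPRC, SPI1, FLT3 and MPO lay at 34.2 to 333 CPM in every library. Of genes of other cells, CD3E, EPCAM and ALB were at or near 0 in every library and COL1A1 stayed below 1 CPM.

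In counts, H2BC12, a gene for histone H2B with a known polyadenylated form, was the highest of these genes in each group, at a mean of 5.96 CPM in DMSO, 5.6 in MI-503 and 17.9 in the combination. The gene after it was H4C5 in DMSO and MI-503 (2.88 and 2.23 CPM), and H2AC6 in the combination (3.77 CPM), where H4C5 was at 1.22 CPM. A mean of at least 1 CPM over all libraries was reached by 15 genes. Per kilobase of annotated exon (FPKM) the order was another one, since the H4 genes are short, and it differed between groups. In DMSO H4C5 was at 7.64 FPKM, H2BC12 at 6.72, H4C1 at 5.61 and H4C3 at 3.48. In MI-503 H2BC12 was at 6.31 FPKM, H4C5 at 5.92 and H4C1 at 4.83. In the combination H2BC12 was at 20.1 FPKM, H4C3 at 8.11 and H2AC6 at 6.9. There H4C5, at 3.23 FPKM, also lay below H2AC11 (3.7), H2BC15 (3.63), H4C12 (3.46) and H1-2 (3.36). H2BC21, with its long annotated tail, was at 0.894 FPKM over all libraries. H2AZ1 and H3-3B, histone variant genes with polyadenylated mRNAs, lay far higher, at 434 and 169 FPKM over all libraries.

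**Figure D1:**
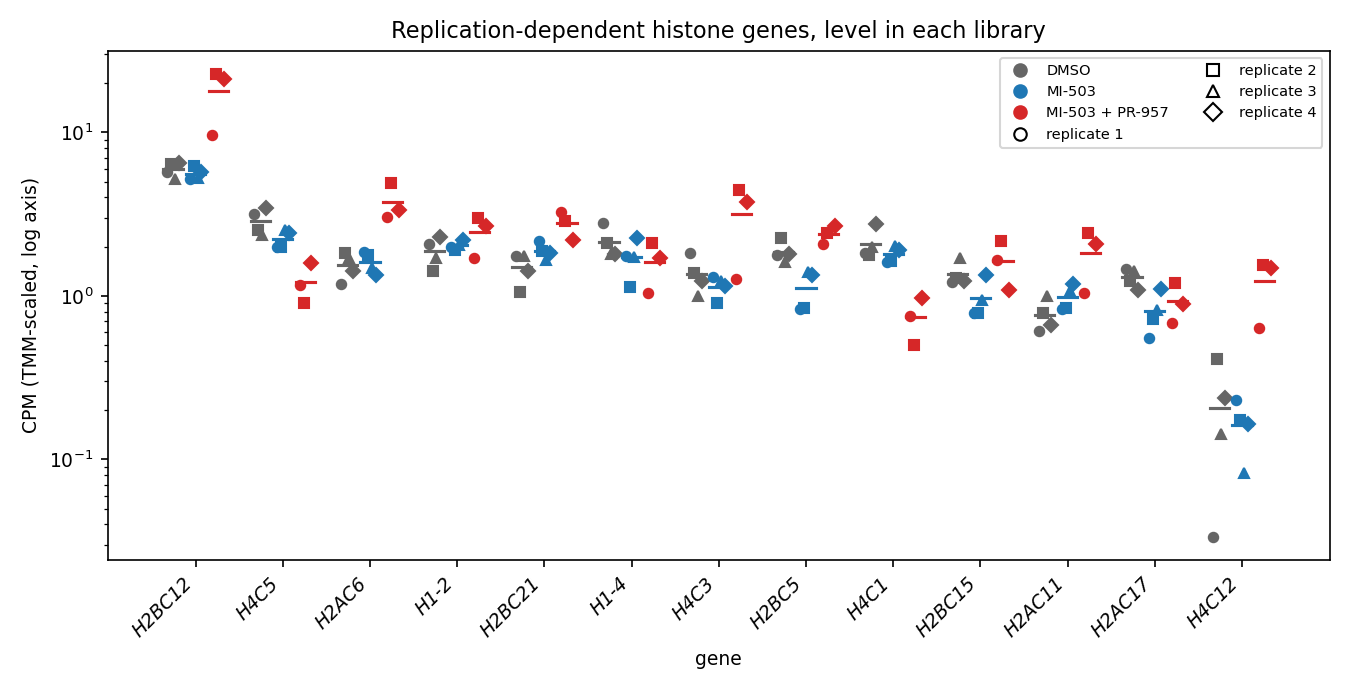
Level of 13 replication-dependent histone genes in each library, in CPM on a log axis; points are libraries (shape gives the replicate number), short lines are group means, and genes are ordered by mean level. H2BC12 lies highest, at 5.18 to 6.54 CPM in DMSO and MI-503 and at 9.67 to 22.8 CPM in the combination; H4C5 and H4C1 are lower in the combination than in either other group.

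Summed over the 66 genes, the level was 42.6, 38.4, 39.3 and 43.2 CPM in DMSO replicates 1 to 4. MI-503 replicates 1 to 4 reached 31.9, 30.8, 35.2 and 38.5 CPM. In the combination the sum was 39.5 CPM in replicate 1, 72.4 in replicate 2 and 62.2 in replicate 4. Replicate 1 of the combination thus lay in the range of DMSO, and the other combination libraries above all others. The group values were 40.9 ± 2.38 (SD, n = 4), 34.1 ± 3.47 (n = 4) and 58 ± 16.8 CPM (n = 3).

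H2BC12 made up 13.3 to 16.6% of the fragments of these genes in DMSO, 14.8 to 20.4% in MI-503 and 24.5, 31.5 and 33.9% in the combination. It belongs to a list of 7 genes known to make polyadenylated transcripts (H1-2, H2AC6, H2BC4, H2BC5, H2BC12, H2BC21 and H4C8). This list summed to 14.6 ± 0.759 CPM in DMSO (SD, n = 4) and 13.8 ± 0.36 CPM with MI-503 (n = 4), against 31.5 ± 9.09 CPM in the combination (n = 3, replicates at 21.3, 38.6 and 34.7). Every combination library was above every other library for the list. Without H2BC12 the remaining 6 genes summed to 8.44 to 8.91 CPM in DMSO, 7.75 to 8.43 in MI-503 and 11.6, 15.8 and 13.6 in the combination, so the difference was present without H2BC12. The 59 genes outside the list summed to 26.3 ± 2.13, 20.3 ± 3.38 and 26.5 ± 7.81 CPM, with 18.3, 33.8 and 27.5 CPM in combination replicates 1, 2 and 4. The 3 groups overlapped for these genes.

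**Figure D2:**
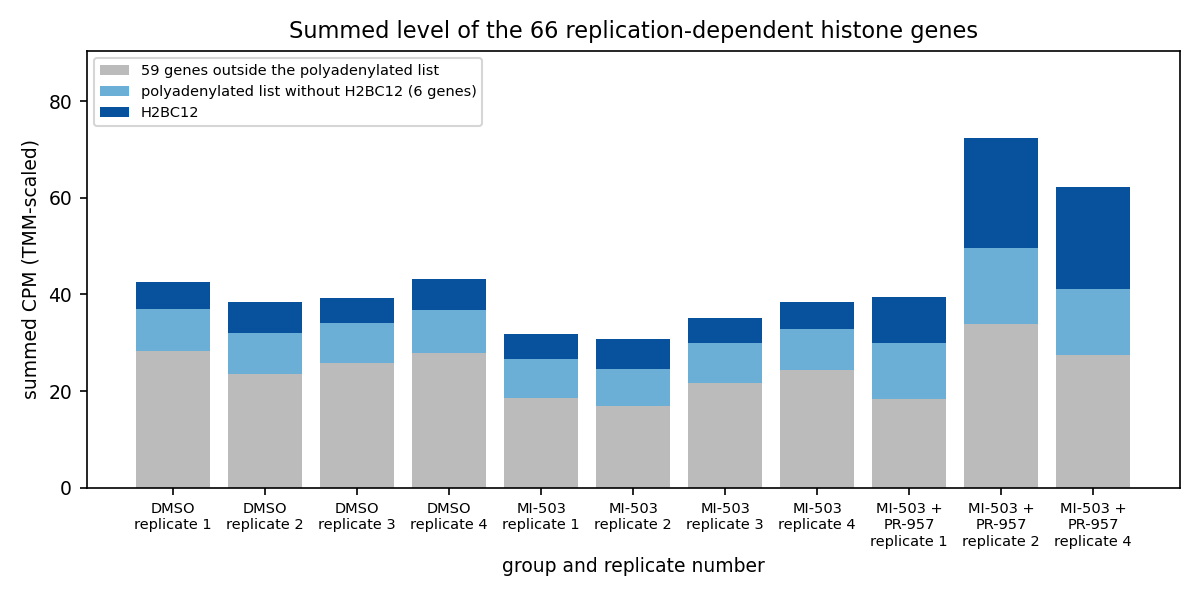
Summed level of the 66 genes in each library, in CPM, as stacked bars for H2BC12, for the other 6 genes of the polyadenylated list and for the 59 remaining genes. The combination libraries hold the largest H2BC12 segments, 9.67 to 22.8 CPM, while replicate 1 of the combination, at 39.5 CPM in all, is as high as the DMSO libraries.

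The first comparison asked what Menin inhibition alone did to these transcripts. With MI-503, 8 of the 33 tested genes fell and 0 rose against DMSO (edgeR, adjusted p under 0.05). The 8 genes were 24.2% of those tested, where 29.3% of all tested genes were lower, and 22% of all tested genes were higher. At an unadjusted p under 0.05, 1 histone gene was higher and 9 were lower, and DESeq2 and limma-voom also called 0 higher. The median log2 fold change of the tested histone genes was -0.32, against -0.03 for all tested genes. The count of 8 dropped to 5 without DMSO replicate 1 or without MI-503 replicate 2.

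Among the more abundant genes, H2BC5 fell. It was at 1.79, 2.25, 1.61 and 1.8 CPM in DMSO and at 0.833, 0.842, 1.4 and 1.35 CPM in MI-503. The groups did not overlap, and the log2 fold change was -0.76 (SE 0.21, edgeR adjusted p = 0.00508). H2AC17, an H2A gene, was at 1.09 to 1.45 CPM in DMSO and 0.555 to 1.1 CPM in MI-503, a change of -0.70 on the log2 scale (SE 0.24, edgeR adjusted p = 0.0193). The groups overlapped. H2AC17 no longer passed when replicate 1 of DMSO or replicate 1 or 2 of MI-503 was left out.

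The other 6 genes lay below 1 CPM on average and were named after their values had been seen. The largest change was that of H3C11, at 0.472, 0.367, 0.569 and 0.664 CPM in DMSO and 0.139, 0.145, 0.165 and 0.286 CPM in MI-503 (log2 fold change -1.48, SE 0.33, edgeR adjusted p = 0.00135). H2BC14 and H3C12 changed by -1.43 and -1.17 on the log2 scale (edgeR adjusted p = 0.00175 and 0.00682). These are genes for H3 and H2B in the third cluster of chromosome 6, as is H2BC17 (-0.78). H2BC14 passed the filter on low counts only through DMSO, the group in which it was high. H2BC11 (-0.84), H2BC7 (-0.70) and H2BC17 were called at edgeR adjusted p = 0.0279 to 0.0384, and DESeq2 called none of these 3 genes. H2BC11 passed the filter on low counts only through the combination, a group outside this comparison.

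H2BC12 and most other genes of at least 1 CPM described here gave no call with MI-503. H2BC12 was at 5.7, 6.38, 5.21 and 6.54 CPM in DMSO and 5.18, 6.27, 5.24 and 5.69 CPM in MI-503 (log2 fold change -0.08, SE 0.22, edgeR adjusted p = 0.79). H2AC6 (0.09), H1-2 (0.11), H2BC21 (0.32), H2AC11 (0.38), H4C1 (-0.21), H4C3 (-0.29), H1-4 (-0.35), H4C5 (-0.38) and H2BC15 (-0.49) were not called either (edgeR adjusted p = 0.0768 to 0.742). A p over the threshold does not show that these levels were equal. H4C5 was called without DMSO replicate 3 (edgeR adjusted p = 0.0489) and H2BC15 without MI-503 replicate 4 (0.0368).

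The second comparison set the combination against DMSO. Of the 33 tested genes 9 were higher and 4 lower (edgeR), that is 27.3% and 12.1%, where 31.7% of all tested genes were higher and 32.8% lower. The share of higher calls was thus near that of all genes, and that of lower calls below it. The median log2 fold change was 0.25, against 0.01 for all tested genes. Without combination replicate 2 the counts were 5 higher and 8 lower, and without replicate 1 they were 12 and 3, so the split of the calls turned on these libraries.

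Beside these counts stand RNAs that, like most histone mRNAs, have no poly(A) tail but are not histone transcripts. Of a list of 9 such RNAs 4 passed the filter, and all 4 rose in the combination against DMSO and against MI-503 (edgeR). Of all tested genes, 31.7% rose against DMSO and 23.6% against MI-503. RN7SK, the RNA that holds the transcription elongation factor P-TEFb inactive, was at 8.95 to 10 CPM in DMSO, 8.22 to 12.2 CPM in MI-503 and 21.6, 84.3 and 60.8 CPM in combination replicates 1, 2 and 4. SNORD3A, the U3 RNA of ribosomal RNA processing, was at 1.84 to 2.75 CPM in DMSO, 1.44 to 1.71 CPM in MI-503 and 1.96, 18.3 and 12.3 CPM in the combination, where replicate 1 lay in the DMSO range. Summed, the 9 RNAs reached 17.1 ± 0.959 CPM in DMSO (n = 4) and 17 ± 2.05 CPM with MI-503 (n = 4), against 31.2, 113 and 82.3 CPM in the combination. The 3 combination libraries stood in the same order, replicate 1 lowest and replicate 2 highest, for these RNAs and for the histone sum. Their part in the histone values was not tested.

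H2BC12 rose. Against the DMSO levels above, it was at 9.67, 22.8 and 21.1 CPM in combination replicates 1, 2 and 4, each above every DMSO library, from 110 to 567 fragments per library. The log2 fold change was 1.55 (SE 0.21, 2.94-fold, edgeR adjusted p = 5.79e-06), and between 1.35 and 1.90 under all alternatives tried. H2AC6, a gene for H2A with a polyadenylated form, rose from 1.18, 1.84, 1.71 and 1.42 CPM in DMSO to 3.04, 4.91 and 3.35 CPM (log2 fold change 1.28, SE 0.20, edgeR adjusted p = 2.49e-05). The groups did not overlap.

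H2BC21, an H2B gene on chromosome 1, was at 1.75, 1.06, 1.75 and 1.42 CPM in DMSO and 3.28, 2.86 and 2.19 CPM in the combination (log2 fold change 0.89, SE 0.19, edgeR adjusted p = 0.000611). Here replicate 1 was the highest of the combination, the reverse of H2BC12. H2AC11 was at 0.607, 0.781, 0.995 and 0.664 CPM in DMSO and 1.04, 2.41 and 2.08 CPM in the combination (log2 fold change 1.22, SE 0.29, edgeR adjusted p = 0.00134). It is a neighbor of H2BC12 in the second cluster of chromosome 6.

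The H4 genes, nearly all of which encode the same protein, went both ways. H4C1 was at 1.82, 1.79, 1.99 and 2.75 CPM in DMSO and at 0.755, 0.501 and 0.967 CPM in the combination (log2 fold change -1.45, SE 0.23, edgeR adjusted p = 2.96e-05). H4C5 was at 3.17, 2.53, 2.37 and 3.46 CPM in DMSO and at 1.16, 0.902 and 1.6 CPM in the combination (log2 fold change -1.23, SE 0.20, edgeR adjusted p = 4.25e-05). In both genes every combination library was below every DMSO library, and replicate 2 was the lowest of the 3, not the highest as for the histone sum. H4C3, by contrast, was at 1.82, 1.38, 0.995 and 1.23 CPM in DMSO and at 1.27, 4.46 and 3.76 CPM in the combination. The change of 1.11 on the log2 scale (SE 0.33, edgeR adjusted p = 0.00716) rested on replicates 2 and 4, since replicate 1 lay within the DMSO range. H4C3 no longer passed without replicate 2, where the value was 0.80, nor with limma-voom (0.81).

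H4C12, named after its values had been seen, had the largest rise. It had 1 to 9 fragments per library in DMSO, 2 to 6 with MI-503 and 27, 31 and 40 in the combination. It thus passed the filter on low counts only through the combination, the group in which it was high. Its rank and p-value are subject to that selection. The levels were 0.0337, 0.413, 0.142 and 0.237 CPM in DMSO and 0.637, 1.55 and 1.49 CPM in the combination, without overlap. The log2 fold change was 2.55 (SE 0.47, edgeR adjusted p = 0.000141). H2BC14, named in the same way, had the largest fall, from 0.505 to 0.759 CPM in DMSO to 0.189, 0.201 and 0.0744 CPM in the combination (log2 fold change -2.03, SE 0.39, edgeR adjusted p = 0.000187). With 11 to 18 fragments in DMSO and 2 to 8 in every other library, H2BC14 passed the filter only through DMSO. The remaining calls were H3C13 (log2 fold change 1.56), H2AC8 (1.05) and H2BC11 (0.69) as higher and H2BC7 (-0.70) as lower, at edgeR adjusted p = 0.0237 to 0.0372. Each of these 4 calls was lost without at least 1 of the libraries, and 28.7% of the exon bases of H3C13 recur elsewhere in the genome. H2BC11, like H4C12, passed the filter on low counts only through the combination.

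The linker histone genes gave no call. H1-2 was at 2.09, 1.42, 1.71 and 2.28 CPM in DMSO and 1.7, 3.01 and 2.68 CPM in the combination (log2 fold change 0.34, SE 0.20, edgeR adjusted p = 0.162). H1-4 was at 2.8, 2.11, 1.8 and 1.8 CPM in DMSO and 1.04, 2.11 and 1.71 CPM in the combination (-0.49, SE 0.26, edgeR adjusted p = 0.114). Both groups of values overlapped, and each gene was called when 1 combination library was left out, H1-2 without replicate 1 (edgeR adjusted p = 0.00818) and H1-4 without replicate 2 (0.0434). H2BC5 (0.34), H2BC15 (0.25) and H2AC17 (-0.56) were not called (edgeR adjusted p = 0.0558 to 0.391).

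**Figure D3:**
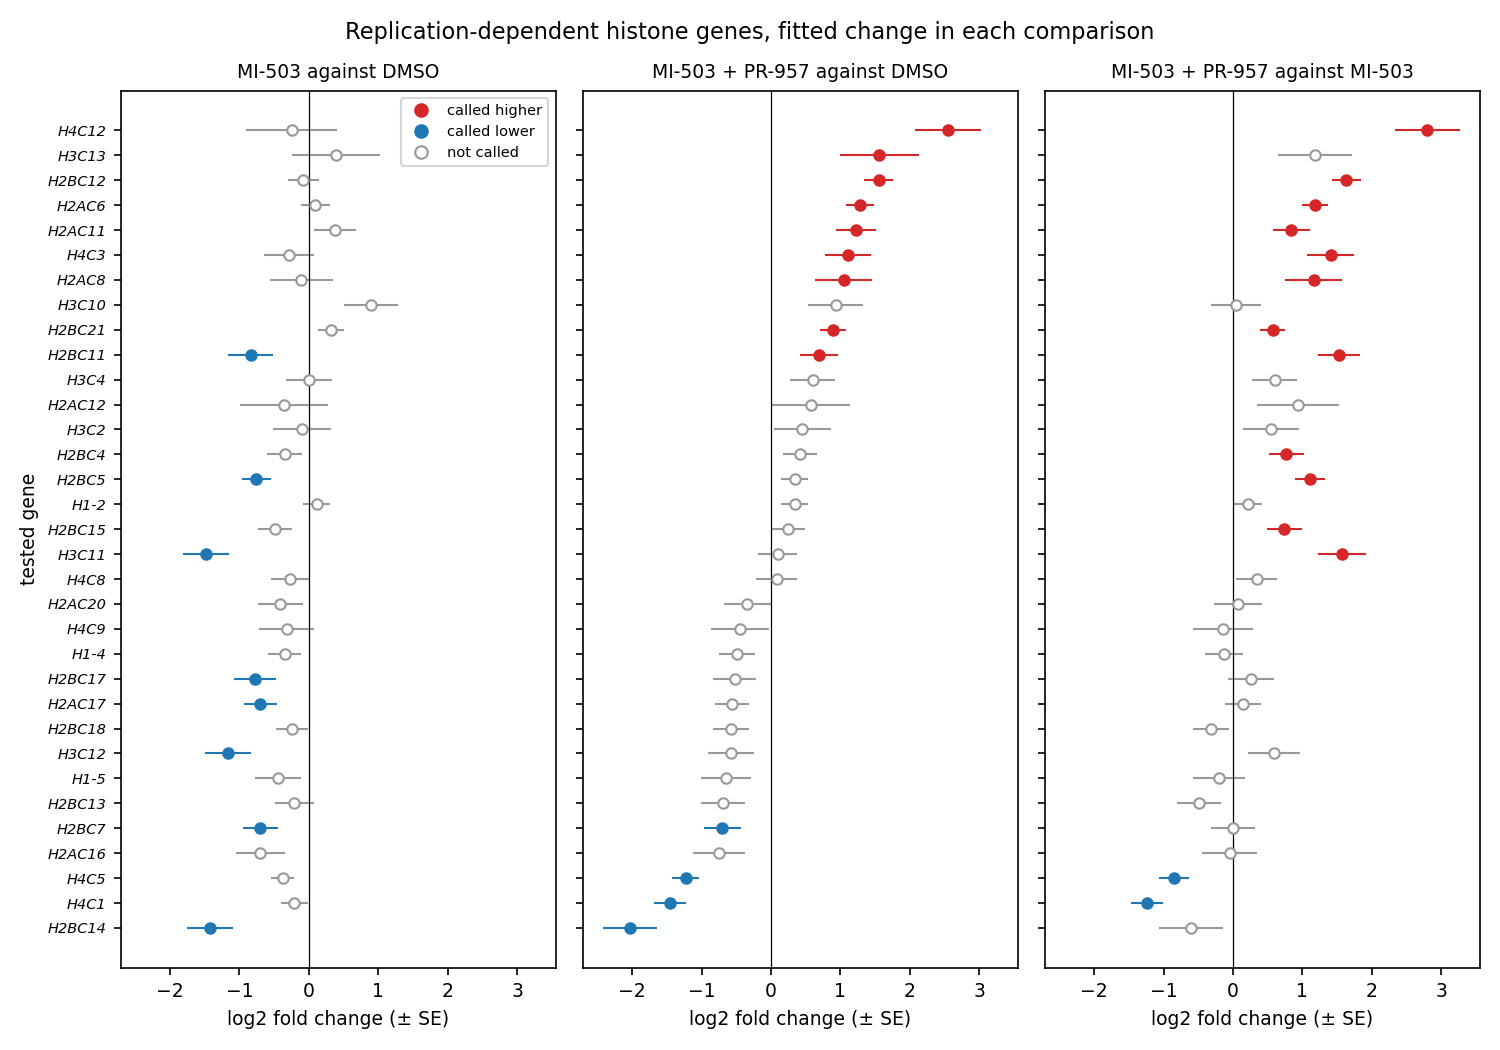
Fitted log2 fold change (± SE) of the 33 tested genes in the 3 comparisons; filled points passed the edgeR test at an adjusted p under 0.05 (red higher, blue lower) and open points did not. With MI-503 the calls are all on the lower side; in the combination H4C12, H2BC12 and H2AC6 are among the higher genes in both comparisons, and H4C1 and H4C5 are lower in both.

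The third comparison asked what PR-957 changed on top of MI-503. It shares the combination libraries with the second comparison and the MI-503 libraries with the first, so the 3 sets of calls are not independent. Here 12 of the 33 tested genes were higher and 2 lower (edgeR), 36.4% and 6.06%, where 23.6% of all tested genes were higher and 23.8% lower. The median log2 fold change was 0.55, against 0.00 for all tested genes. Without combination replicate 2 the higher count was 8, and H2AC11 and H2BC15 were among the calls lost.

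H2BC12 was again the most abundant riser, from 5.18 to 6.27 CPM in MI-503 to at least 9.67 CPM in the combination (log2 fold change 1.63, SE 0.21, edgeR adjusted p = 8.55e-06). H2AC6 rose from 1.85, 1.77, 1.49 and 1.35 CPM to 3.04, 4.91 and 3.35 CPM (1.18, SE 0.19, edgeR adjusted p = 9.36e-05). H4C3 had been at 1.3, 0.9, 1.24 and 1.15 CPM in MI-503 and changed by 1.41 on the log2 scale (SE 0.34, edgeR adjusted p = 0.00239), with replicate 1 of the combination again inside the range of the other group. H2BC12, H2AC6 and H4C3 stayed called in this comparison under each alternative that gave them a value.

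H2BC5, lower with MI-503 alone, was higher with the combination than with MI-503: 2.08, 2.41 and 2.68 CPM, above the MI-503 range of 0.833 to 1.4 CPM (log2 fold change 1.11, SE 0.21, edgeR adjusted p = 0.000324). The same order of groups held for H3C11, at 0.543, 0.552 and 0.558 CPM in the combination (1.57, SE 0.34, edgeR adjusted p = 0.00104). It also held for H2BC11, at 0.59, 0.702 and 0.929 CPM (1.53, SE 0.30, edgeR adjusted p = 0.000479). H2BC11 passed the filter on low counts only through the combination, the group in which it was high. Its rise and p-value are subject to that selection. Because the MI-503 libraries enter both comparisons, a low value in them lowers one and raises the other.

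The other higher calls were H4C12 (2.80), H2AC8 (1.16), H2AC11 (0.84), H2BC4 (0.77), H2BC15 (0.74) and H2BC21 (0.57), at edgeR adjusted p = 0.000124 to 0.0282. H4C12 passed the filter only through the combination, as said above. H2BC21 lost its call without combination replicate 1 or 2 (edgeR adjusted p = 0.132 and 0.0511). H2AC8 lost its call with limma-voom and without combination replicate 2 or 4, among others. H2BC4 lost its call with DESeq2 and without combination replicate 4. For H2AC8, H2AC11 and H2BC15 the combination and MI-503 libraries overlapped. H4C1 was at 1.62, 1.63, 2.02 and 1.92 CPM in MI-503 and H4C5 at 1.99, 2, 2.52 and 2.41 CPM, and both fell in the combination (log2 fold change -1.24, SE 0.23, and -0.85, SE 0.21, edgeR adjusted p = 0.000312 and 0.00262). Every combination library was below every MI-503 library for both genes. H1-2 (0.22), H2AC17 (0.14) and H1-4 (-0.13) were not called (edgeR adjusted p = 0.386 to 0.715).

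By family, the H2B genes took a larger share of the histone fragments in the combination: 49.2 to 52.6% of them, against 38.5 to 42.2% in DMSO and 38.8 to 41.5% in MI-503. The H4 genes took 13.1 to 16.1% in the combination and 18.3 to 22.9% in the other libraries, and the H1 genes 8.17 to 8.31% and 10.5 to 14.7%. These shares did not overlap between the combination and the other groups, and they move with H2BC12, which alone supplied 24.5 to 33.9% in the combination. In level, the H4 genes summed to 8.68 ± 1.19 CPM in DMSO (SD, n = 4), 7.15 ± 0.949 CPM with MI-503 (n = 4), and the combination reached 8.39 ± 2.77 CPM (n = 3). The H1 genes summed to 5.01 ± 0.984, 4.51 ± 0.807 and 4.81 ± 1.43 CPM, and for both families the levels of the groups overlapped. Against DMSO, 3 of 7 tested H2A genes were higher and 0 lower in the combination, 3 and 2 of 11 H2B genes, 1 and 0 of 6 H3 genes, 2 and 2 of 6 H4 genes, and none of the 3 H1 genes was called. Over all tested genes these shares were 31.7% higher and 32.8% lower, and with so few genes a family is not set apart from that background.

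By position, the second cluster on chromosome 6 held 5 genes (H2AC11, H2AC12, H2BC11, H2BC12 and H4C9). They summed to 7.35 to 8.63 CPM in DMSO, 6.75 to 8.02 CPM in MI-503 and 12.2, 26.7 and 24.6 CPM in the combination. Of these sums H2BC12 alone held 5.21 to 6.54 CPM in DMSO, 5.18 to 6.27 in MI-503 and 9.67, 22.8 and 21.1 in the combination. In the combination against DMSO 3 of the 5 genes were higher and 0 lower. Over all tested genes 31.7% were higher and 32.8% lower. Of the higher genes, H2BC11 passed the filter on low counts only through the combination. The third cluster of chromosome 6 summed to 8.77 to 10.6 CPM in DMSO and 5.61 to 8.39 CPM in MI-503, without overlap. It held 11 of the 33 tested genes, of which 5 fell with MI-503, where 29.3% of all tested genes did. The clusters were not tested against each other. Of the 7 genes of the polyadenylated list, 3 rose and 0 fell in the combination against DMSO, at a median log2 fold change of 0.42. Of the 26 tested genes outside it 6 were higher and 4 lower, with a median of -0.40. Both sets of counts stand beside the 31.7% higher and 32.8% lower of all tested genes. The list had been drawn up with earlier results of these data known, and the difference between the groups of genes was not tested.

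The genes that act with histone supply mostly went down. Of 22 tested genes of DNA replication, which are active in the same phase of the cell cycle as histone genes, 21 fell with MI-503 and 22 in the combination against DMSO (edgeR), with median log2 fold changes of -0.42 and -0.91. Of all tested genes, 29.3% fell with MI-503 and 32.8% in the combination against DMSO. In the replication list MCM4, a subunit of the replicative helicase, changed by -0.38 (SE 0.06) and -1.08 (SE 0.06). Of 8 histone chaperones and the acetyltransferase of new histones, all 8 fell in both comparisons. Among these was NASP, the carrier of H3 and H4, at 237 to 256 CPM in DMSO, 171 to 190 in MI-503 and 126 to 130 in the combination. The histone genes, by comparison, had the 9 higher and 4 lower calls given above. In RNA from a whole culture, fewer cells in S phase and less of a transcript per cell cannot be told apart.

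Of 17 genes of histone transcription and 3′ end processing, 15 fell with MI-503 and 16 in the combination against DMSO. Over all tested genes these shares were 29.3% and 32.8%. SLBP, which binds the stem-loops printed above, was at 126 to 135 CPM in DMSO, 89.6 to 105 in MI-503 and 63.8, 75.6 and 77.7 in combination replicates 1, 2 and 4 (log2 fold change -0.47, SE 0.06, and -0.88, SE 0.07, edgeR adjusted p = 6.13e-06 and 5.26e-09). NPAT, the coactivator of histone gene transcription, changed by -0.25 (SE 0.06) and -0.43 (SE 0.06). LSM10 and LSM11, proteins of the U7 particle, also fell in the combination against DMSO (-0.23 and -0.46, edgeR adjusted p = 0.0195 and 8.01e-05). Whether these levels had a part in the histone counts was not tested.

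Genes of histone mRNA translation and decay were mixed. Of 8 such genes, 3 rose and 4 fell in the combination against DMSO. Over all tested genes 31.7% rose and 32.8% fell, and with so few genes the list is not set apart from that background. XRN1, an exonuclease, went from 47.1 to 48.7 CPM in DMSO to 73.1, 65.8 and 65.1 CPM (log2 fold change 0.51, SE 0.05, edgeR adjusted p = 1.87e-07), and the uridylyl transferase TUT7 from 42 to 46.9 CPM to 58.8, 55.4 and 51.6 CPM (0.31, SE 0.05, edgeR adjusted p = 7.55e-05). LSM1 fell by 0.49 on the log2 scale.

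A list of histone variant genes outside the numbered families, named replication-independent in the plot of summed levels by list, was set beside them. It is not uniform: CENPA is transcribed late in the cycle, and H2AX also makes a replication-linked mRNA with a stem-loop. Of 10 tested, 6 fell and 2 rose in the combination against DMSO, at a median log2 fold change of -0.36. Of all tested genes 32.8% fell and 31.7% rose. H2AX, an H2A variant of DNA repair, fell from 121 to 136 CPM in DMSO to 54.1, 68 and 62.9 CPM (-1.05, SE 0.07, edgeR adjusted p = 5.99e-10), and H2AZ1 and H3-3A changed by -1.16 and -0.77. The summed level of the histone variant genes was 2159 to 2324 CPM in DMSO and 1630 to 1817 CPM in the combination.

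**Figure D4:**
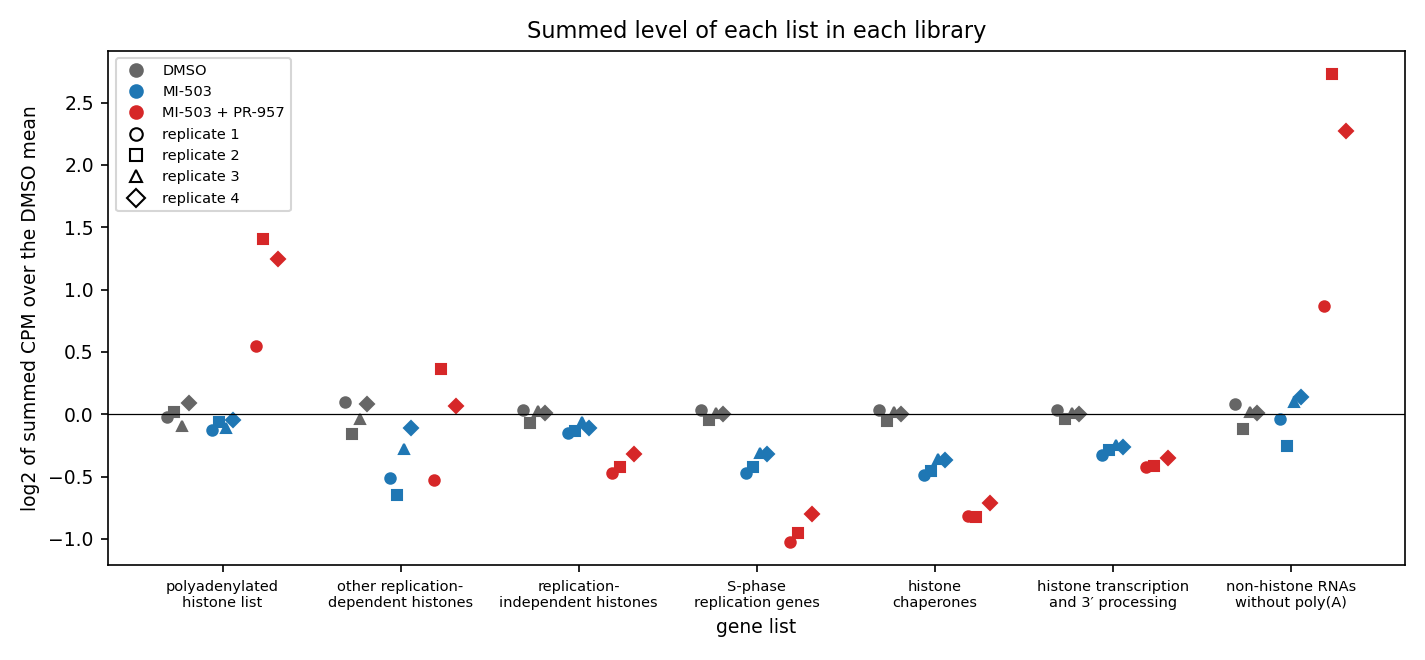
Summed level of each gene list in each library, as the log2 ratio to the DMSO mean; colors give the group and shapes the replicate number. S-phase, chaperone and processing genes are lower in the combination, the polyadenylated histone list and the RNAs without poly(A) are higher in it with replicate 1 nearest to DMSO, and the other replication-dependent histone genes straddle the DMSO mean.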

How the data were processed

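Libraries from poly(A) RNA of MOLM-13 cells were made with a TruSeq kit. Per the labels and file headers, the authors used Trimmomatic 0.39, STAR 2.7.10a and featureCounts 2.0.1 on exons of the hg38 RefSeq annotation. What the authors deposited are unnormalized counts of fragments for each gene, taken from both strands. Multiply mapped fragments and those on exons of more than 1 gene were left out. How the alignments were filtered first is not stated. The joined table and the single count files differed in 0 cells. The authors' tables of log2 fold changes and p-values were not used.

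Counts were analyzed with edgeR 4.0.16 in R 4.3.3: filterByExpr (minimum count 10), TMM factors (0.957 to 1.06) and 1 quasi-likelihood model of all 11 libraries, two-sided, with Benjamini-Hochberg adjustment over 14683 genes and calls at an adjusted p under 0.05. It was tested on simulated data. CPM are relative to TMM-scaled totals, FPKM are CPM per kilobase (1000 bases) of annotated exon, and the SE of a log2 fold change is its size over the square root of its F statistic. Alternatives used DESeq2 1.42.0, limma-voom (limma 3.58.1), other scalings, filters and samples. Stem-loops were sought in hg38 up to 60 bases past each gene, and promoters came from RefSeq (GRCh38.p14).

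The genes described singly were the 10 with the highest mean CPM and, among genes of at least 1 CPM, the up to 4 called genes with the largest rise and fall per comparison; others are said to be named after their values had been seen. Of accompanying lists, genes were named by the smallest adjusted p in the combination against DMSO; NPAT, LSM10, LSM11, H3-3B and, from the marker list, the genes given were named outside this rule, and some genes of these lists are not reported here. Genes and lists were chosen with earlier results of these data known. Replicate numbers come from the sample titles. Same-numbered libraries deviated together in all 3 pairs of MI-503 and combination (r = 0.141 to 0.211 over genes), but over 0.1 in only 6 of all 10 pairs (r from -0.252 to 0.287). Differently numbered pairs ran from -0.315 to 0.318, so these values do not set same-numbered pairs apart.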

Additional observations from a re-analysis of the deposited data

Results flagged for a closer look

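In DMSO, H2BC15 was at 1.71 CPM in replicate 3 against at most 1.29 CPM in the others, a gap of 0.855 of the range of the group. H3C12 was at 0.826 CPM in DMSO replicate 2 against at least 1.33 CPM in the others, a gap of 0.901 of the range. Both lie past Dixon's limit for 4 samples. The levels were examined in 48 groups of 4 libraries, and chance passes the limit in about 1 of 20 groups. H3C12 was called lower with MI-503 with each library left out.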

How the results depend on the processing

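Genes called lower with MI-503 numbered 8 in the reported fit, 5 with DESeq2, 4 at an adjusted p under 0.01, 1 under the stricter filter, which left 7 histone genes to test, and 5 to 9 with 1 library left out. Genes called higher numbered 0, 1 without a filter, 1 with only the compared groups in the model, and 0 to 1 with 1 library left out. In the combination against DMSO the higher count of 9 became 3 and the lower count of 4 became 1 under the stricter filter, and they ran from 5 to 12 and 3 to 8 with 1 library left out, where combination replicate 2 gave 5 and 8. Against MI-503 the higher count of 12 became 4 under the stricter filter and 7 at an adjusted p under 0.01, and ran from 8 to 14; the lower count of 2 became 1 under the stricter filter. The cause of these shifts was not tested, apart from the smaller number of genes tested. Detected genes numbered 34, and 18 at a level of at least 1 CPM in 3 libraries. Without H2BC12 the summed level was 34.9, 28.5 and 40.2 CPM in DMSO, MI-503 and the combination, in place of 40.9, 34.1 and 58.

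With the replicate number as a block the counts were 0 higher and 7 lower with MI-503 (H2BC17 lost), 11 and 4 in the combination against DMSO (H2AC12 and H3C10 gained) and 14 and 2 against MI-503 (H2AC12 and H3C13 gained). The pairing by number changed no other call of these genes.

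Of single genes, a direction turned in 4 cases, none of them called: H2AC6 with MI-503 (-0.03 without DMSO replicate 1, from -0.03 to 0.19 over the libraries left out), H1-4 in the combination against MI-503 (0.03 without MI-503 replicate 4 and 0.14 without combination replicate 1, from -0.38 to 0.14) and H2AC17 there (-0.09 without combination replicate 2, from -0.09 to 0.33). Over all alternatives, single genes lost a call in 70 cases and gained one in 8, while 891 stayed on the same side with the same direction. The median level of the tested histone genes was 0.821 CPM.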
